A study of Mus musculus with 19 samples.

Results

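The change in transcripts of the tenotomy site between day 3 and day 7 after burn/tenotomy was described in 2 sets of cells. The myeloid set was chosen for monocytes and macrophages, and the stromal set for fibroblast-lineage cells. In this mouse model of heterotopic ossification, in which bone forms in soft tissue after trauma, the Achilles tendon is cut and a partial-thickness burn is placed on the back, and cells of the tenotomy site are released with collagenase and dispase. Of the 19 droplet single-cell libraries of the series, 7 were used, which were 3 of day 3 and 4 of day 7 without the peptide p7N3. C57 and LysmCre/Tgfb1fx/fx mice appear in the labels, the latter with Tgfb1 deleted by Cre from the Lyz2 locus, but no library is tied to either, so that the genotype of each library is unknown here. No vehicle is named for the day 7 libraries, the labels used here give no age, and whether a library held 1 mouse or a pool is not stated. The paper also describes cells taken 1 week after injury from mice given PBS. Whether the day 7 libraries came from such mice is not known here. Day 7 replicate 4 was deposited apart from the other libraries, with labels laid out differently.

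Transcripts were counted by unique molecular identifiers (UMIs), which count the PCR copies of a molecule once. A barcode with 500 genes or more, of whose UMIs no more than 25% were mitochondrial, was kept as a cell, which gave 5795 at day 3 and 13414 at day 7, of 39541 in the series. A cell was called myeloid with at least 1 UMI of Csf1r (the receptor for macrophage colony-stimulating factor), at least 5 UMIs of Lyz2 (lysozyme) and none of Pdgfra. It was called stromal with at least 1 UMI of Pdgfra (a platelet-derived growth factor receptor of fibroblasts) and more UMIs of Col1a1 (type I collagen) than of Lyz2. The paper saw Csf1r transcripts in its granulocyte and lymphocyte clusters too, so that the myeloid gate may also hold neutrophils or dendritic cells. Of the 19209 kept cells of both days, 8870 were myeloid (4237 at day 3 and 4633 at day 7) and 4773 were stromal (764 and 4009). The whole series held 14123 and 11013. Each day 3 library gave 1286 to 1482 myeloid and 179 to 350 stromal cells, and each day 7 library gave 1028 to 1305 and 865 to 1226.

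After such an injury the early infiltrate is rich in neutrophils and in monocytes from the blood, which carry the surface protein Ly6C, make interleukins and chemokines under the transcription factor NF-kB, and give rise to macrophages. Macrophages that take up dead cells handle lipid and cell debris in their lysosomes and can present antigen on MHC class II. Fibroblast-lineage cells proliferate, become contractile and lay down collagens, proteoglycans and elastic fibres, and in heterotopic ossification cartilage and bone later form in that matrix. The comparison of day 7 with day 3 thus covers the step from inflammation to early matrix.

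UMIs were summed per library within each gate and divided by the library's total UMIs in the gate and its TMM factor, which gives CPM, the UMIs of a gene per 1000000 UMIs of the gate. Day 7 was set against day 3 with edgeR's quasi-likelihood test on these sums, and adjusted p means the Benjamini-Hochberg value of that test over all genes tested in the gate, with 0.05 as the threshold. A positive log2 fold change means higher at day 7, and a number given alone in parentheses after a gene's levels, or after "rose by", is a log2 fold change. A gene was called on at day 7 when it passed the threshold with a log2 fold change of at least 2, a mean under 5 CPM at day 3 and of at least 20 CPM at day 7, and libraries that did not overlap, and off in the mirror case. These words stand for those limits and not for absence of RNA. A gate sum holds several states and some RNA from other cells, so that a change within cells and a change in which cells the gate holds cannot be told apart.

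The 3 day 3 libraries held 25243407 to 33704901 UMIs in cells and the 4 day 7 libraries 33235893 to 39870492, and any pair of the 7 shared 5 to 22 cell barcodes. Cells were less deep at day 7. The median myeloid cell had 9885 to 10223 UMIs at day 3 and 4554 to 6129 at day 7, and the median stromal cell 33464.5 to 42171 and 11189 to 19627, ranges that do not overlap. Both gates carried RNA of other cells, unequally by day. The 7 neutrophil markers (S100a8, S100a9, Retnlg, Csf3r, Cxcr2, Ly6g and Mmp8) summed to 2991 to 5735 CPM at day 3 and 178 to 527 CPM at day 7 in the myeloid sums and to 1413 to 2364 CPM at day 3 and 75.0 to 209 CPM at day 7 in the stromal sums, and 7 of 7 fell in both. The 9 myeloid markers, which include Cd68, Tyrobp and Ptprc, summed to 1121 to 1227 CPM at day 3 and 217 to 329 CPM at day 7 in the stromal sums, where 9 of 9 fell. The 8 stromal markers, which include Dcn, Lum and Col3a1, summed to 1555 to 2359.7 CPM at day 3 and 3198 to 5294 CPM at day 7 in the myeloid sums, where 6 of 8 rose. A limit was set on RNA from other cells. A gene passed it when its CPM in a gate, on its higher day, was at least 0.25 of that in kept cells outside. RNA spread over all cells can pass this limit, as the neutrophil gene Retnlg did in the stromal sums (126 against 314 CPM at day 3). Passing thus does not place a gene in the cells of the gate. An alternative, the gate without carried-over RNA, left out myeloid cells with at least 0.1% of UMIs from Col1a1, Col1a2 and Col3a1. In the stromal gate it left out cells with a Ptprc UMI. It dropped cells and took no RNA out of those kept.

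**Figure D1:**
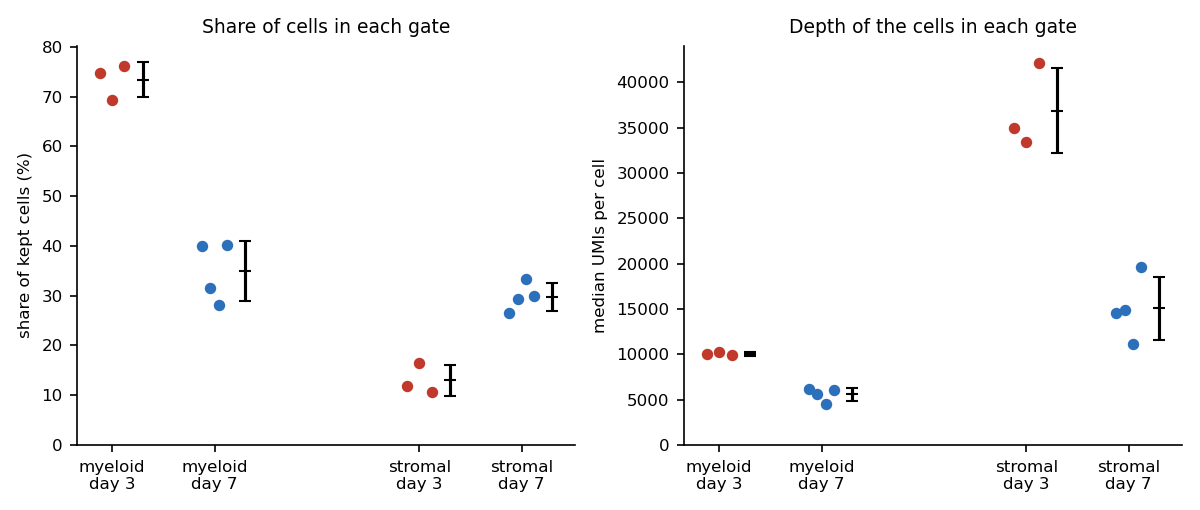
Share of kept cells in each gate (percent) and median UMIs per cell in each gate, by library. Points are the 3 day 3 and 4 day 7 libraries, and the dash and bar beside them are the group mean ± SD. The myeloid share lay at 69.3% to 76.0% at day 3 and 28.0% to 40.2% at day 7, and the median depth of both gates was lower at day 7.

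**Figure D2:**
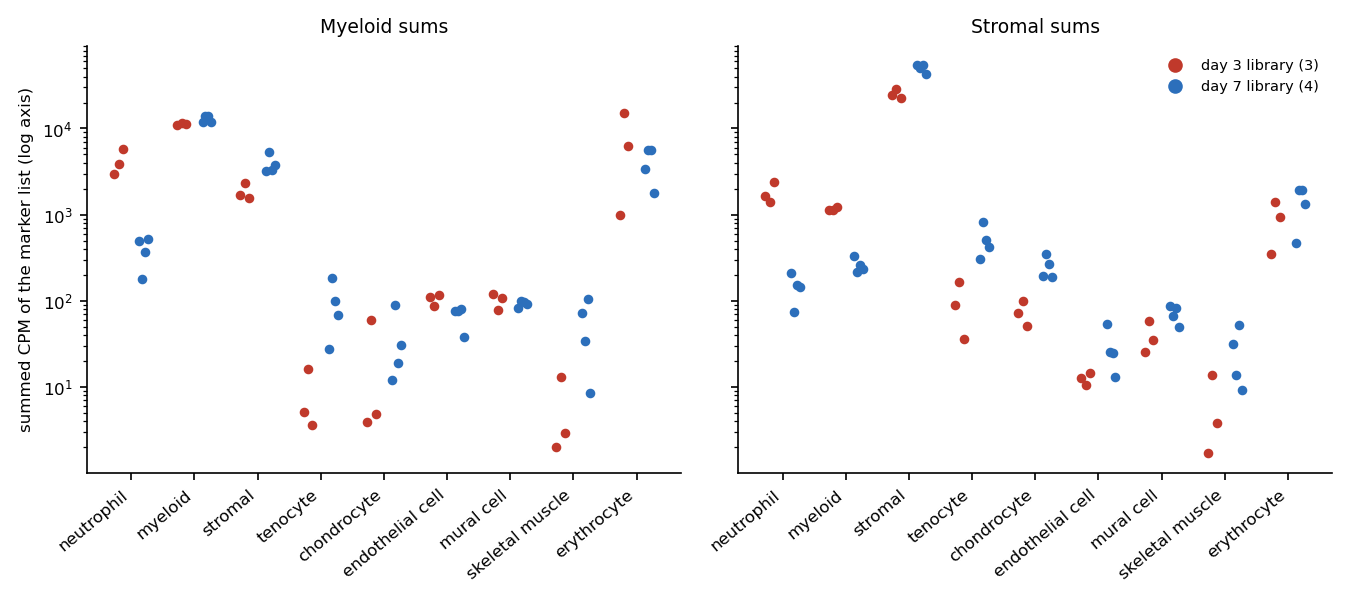
Summed CPM of marker lists of other cell types in the myeloid and stromal sums of each library, on a log axis. Neutrophil markers were lower in all 4 day 7 libraries than in all 3 day 3 libraries in both gates, and stromal markers in the myeloid sums were higher.

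Myeloid cells made up a smaller share of the cells at day 7 and stromal cells a larger one. The myeloid share was 74.7%, 69.3% and 76.0% of the kept cells in day 3 replicates 1, 2 and 3 and 40.0%, 31.6%, 28.0% and 40.2% in day 7 replicates 1 to 4. The stromal share was 11.9%, 16.4% and 10.6% at day 3 and 26.5%, 29.3%, 33.4% and 29.9% at day 7. The groups did not overlap in either. The differences of the means were -38.4 and 16.8 percentage points, each with p = 0.0571 in a two-sided exact permutation test over 35 splits, which is the smallest p that 3 against 4 libraries allow. Shares of cells depend on the gate and on depth. When cells with any UMI of 8 dendritic cell and neutrophil genes were left out of the myeloid gate the difference turned to 15.8 points, since 12.6% to 18.4% of day 3 cells and 25.6% to 36.1% of day 7 cells were then counted.

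Of 12049 genes tested in the myeloid sums, 3809 (31.6%) passed the threshold, 1854 higher at day 7 (15.4%) and 1955 lower (16.2%). At least a 2-fold change was seen in 491 of the higher (4.08% of those tested) and 465 of the lower (3.86%). In the stromal sums 5754 of 13226 genes passed (43.5%), 2914 higher (22.0%) and 2840 lower (21.5%), with 1028 (7.77%) and 815 (6.16%) past 2-fold. CPM of the 3 and 4 libraries did not overlap for 40.6% of the myeloid and 49.1% of the stromal genes. The median log2 fold change over all genes tested was 0.0062 in the myeloid and 0.026 in the stromal sums. With such shares of changed genes, a list whose members passed at about these rates does not stand apart from the rest.

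In the myeloid sums 11 genes were off at day 7 (0.0913% of those tested), and these were largely genes of neutrophils and of blood monocytes. The 11 were Retnlg, Lcn2, Wfdc21, Gm5483, Stfa2l1, Asprv1, Fpr1, Mmp8, Gm7676, Upp1 and Trem3. Retnlg, a secreted resistin-like protein of neutrophils and one of the neutrophil markers, had 172, 303 and 294 CPM in the day 3 libraries and 4.52, 1.61, 6.48 and 5.49 CPM in the day 7 libraries (log2 fold change -5.85, standard error 0.32, adjusted p = 9.09e-05). Lcn2, lipocalin 2, which binds bacterial iron carriers, had 35.3, 54.5 and 93.9 CPM in the day 3 libraries and 2.37, 1.74, 1.72 and 2.98 CPM in the day 7 libraries (log2 fold change -4.75, standard error 0.38, adjusted p = 1.84e-04). Every day 3 library was above every day 7 library for both, which the definition of off requires. At day 3 Lcn2 had a mean of 61.2 CPM here and 172 CPM in the kept cells outside the gate. The part of RNA from those cells in its fall was not tested. Fpr1, a receptor for bacterial formyl peptides, had 17.8, 22.6 and 44.8 CPM at day 3 and 3.87, 3.88, 2.86 and 5.49 CPM at day 7 (log2 fold change -2.78).

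Mmp8, the neutrophil collagenase, had 22.1, 29.2 and 29.8 CPM at day 3 and 5.27, 3.21, 2.10 and 4.53 CPM at day 7 (log2 fold change -2.78), and Trem3, a receptor of myeloid cells, had 20.6, 18.3 and 25.8 CPM at day 3 and 5.38, 4.55, 2.86 and 4.53 CPM at day 7 (-2.27). Gm5483 and Stfa2l1 belong to the stefin A family of cysteine protease inhibitors, whose near-identical copies lie side by side on chromosome 16, so that the split of reads between them is uncertain. Their log2 fold changes were -4.44 and -4.29. The fall of these genes ran beside that of the neutrophil markers given above, and the part of neutrophil RNA in it was not tested. In cells thinned to 2000 UMIs, Retnlg was found in 24.5% at day 3 and 0.583% at day 7 of the myeloid cells, against 22.9% and 0.349% of the stromal cells.

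Only 3 of the 11 genes on in the myeloid sums (0.0913% of those tested) also passed the limit on RNA from other cells, and these were Retnla, Bhlhe41 and Cd4. The other 8 were Mdk, Cdkn1c, Col8a1, Col11a1, Tnn, Ptn, Tnmd and C1qtnf3, mostly matrix and growth factor genes, whose CPM in the myeloid sums was 0.08 to 0.20 of that in the other cells. Retnla (RELM alpha), a secreted protein of alternatively activated macrophages (chromosome 16, 48842551 to 48844461, GENCODE vM21 on GRCm38), had 0.766, 0.111 and 0 CPM in the day 3 libraries and 185, 98.8, 244 and 159 CPM in the day 7 libraries (log2 fold change 9.06, standard error 0.56, adjusted p = 9.09e-05). It rested on 16 UMIs at day 3 and 5065 at day 7, and the 4 day 7 libraries themselves differed widely. It was found in 3.45% of the myeloid cells of day 7, and after thinning to 2000 UMIs in 2.12% of them against 0.474% of the stromal cells. Cd4, a coreceptor of helper T cells that some monocytes and macrophages also carry, had 4.16, 6.63 and 3.88 CPM at day 3 and 30.8, 27.6, 28.2 and 16.5 CPM at day 7 (log2 fold change 2.39, standard error 0.25, adjusted p = 4.14e-04). Bhlhe41, a transcriptional repressor, had 3.12, 5.01 and 5.19 CPM at day 3 and 22.8, 26.9, 24.2 and 25.6 CPM at day 7 (log2 fold change 2.49, standard error 0.17, adjusted p = 1.08e-04). In the kept cells outside the gate its mean went from 9.75 to 30.8 CPM, and its day 7 mean in the gate was 24.9 CPM. The part of RNA from those cells in its rise was not tested. T or NK cell markers (Cd3d, Cd3e, Cd3g, Nkg7 and Ncr1) summed to 4.88 to 8.37 CPM at day 3 and 2.97 to 12.1 CPM at day 7 in the myeloid sums.

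The promoter of Retnla is shown because this gene had the largest change among the genes named from the myeloid sums. It lies on mouse chromosome 16 at chr16:48842359-48842658, plus strand, in RefSeq's GRCm38.p6, from 250 bases before to 50 bases after the start of transcription, and the capitals mark a TATAAA match whose first base lies 30 bases before the start. TATAAA was present on either strand in 13.6% of 32851 promoters of that length.
Retnla: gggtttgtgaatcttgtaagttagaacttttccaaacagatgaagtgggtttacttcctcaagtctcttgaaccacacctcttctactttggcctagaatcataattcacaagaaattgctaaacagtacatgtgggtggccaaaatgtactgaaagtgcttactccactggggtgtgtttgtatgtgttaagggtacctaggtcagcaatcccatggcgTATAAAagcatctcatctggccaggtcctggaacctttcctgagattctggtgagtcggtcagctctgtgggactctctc

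Among genes of at least 20 CPM at day 7 and at least 0.25 of the CPM of the other cells, the largest rises after Retnla in the myeloid sums were mainly in genes of macrophages and dendritic cells. Mgl2, a galactose-binding lectin of alternatively activated macrophages and dendritic cells, had 9.09, 8.63 and 8.02 CPM in the day 3 libraries and 86.6, 38.3, 80.4 and 38.2 CPM in the day 7 libraries (log2 fold change 2.82, standard error 0.32, adjusted p = 5.44e-04). Gpnmb, a transmembrane glycoprotein of phagocytes with lysosomal stress, had 45.2, 67.6 and 56.7 CPM in the day 3 libraries and 204, 338, 309 and 452 CPM in the day 7 libraries (log2 fold change 2.53, standard error 0.25, adjusted p = 3.44e-04). Both were higher in each day 7 library than in any at day 3, which the rule for the largest changes requires. Mmp12, macrophage elastase, had 5.86, 36.3 and 68.1 CPM at day 3 and 158, 134, 123 and 389 CPM at day 7 (log2 fold change 2.46, standard error 0.70, adjusted p = 0.0255). Its 4 day 7 values were spread widely, and the call was lost without day 3 replicate 2 or without day 7 replicate 4. Itgax (CD11c, an integrin chain of dendritic cells and some macrophages) rose from 6.53 to 32.7 CPM. Hpgd, which degrades prostaglandins, rose from 9.32 to 41.0 CPM, and Atp6v0d2, a subunit of the proton pump of lysosomes, rose from 11.8 to 51.6 CPM. Slamf7, Clec4b1 and Fam26f completed the 12 largest rises, with log2 fold changes of 2.36, 2.27 and 2.12.

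**Figure D3:**
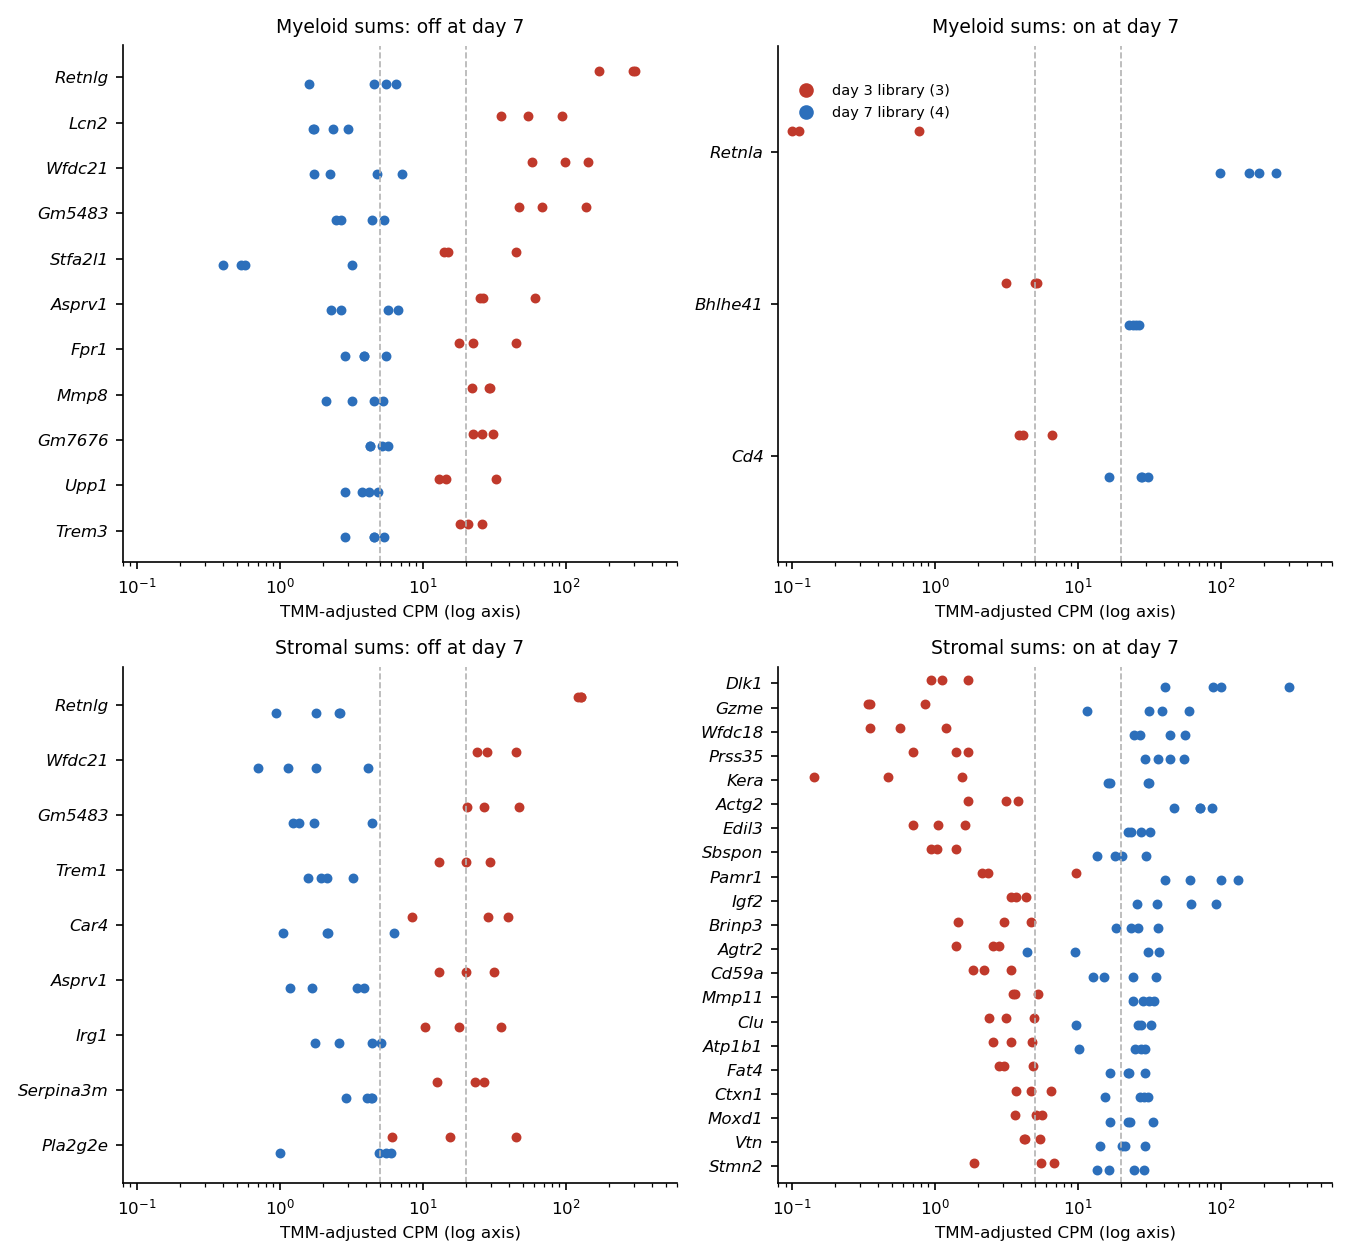
CPM by library of the genes on or off at day 7 that passed the limit on RNA from other cells, on a log axis, with values under 0.1 drawn at 0.1 and dashed lines at 5 and 20 CPM. Points are the 3 day 3 and 4 day 7 libraries. Retnla went from at most 0.766 CPM at day 3 to at least 98.8 CPM at day 7.

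Inflammatory mediators were lower at day 7 in both gates. Over all genes tested, 15.4% were higher and 16.2% lower in the myeloid sums and 22.0% and 21.5% in the stromal sums. Of the inflammatory cytokines and enzymes, 0 of 14 tested members were higher and 11 lower in the myeloid sums (median log2 fold change -1.21) and 0 of 15 were higher and 12 lower in the stromal sums (median -2.08). Of the 12 in the stromal sums, 7 (Il1a, Il1b, Il1rn, Tnf, Osm, Il10 and Nlrp3) were at under 0.25 of the CPM of the other cells, and 5 (Il6, Lif, Csf1, Csf3 and Ptgs2) were above that limit. Myeloid markers fell in the same sums, 9 of 9 with a median of -2.27, and their part in these falls was not tested. Il1b, the main secreted interleukin 1 of monocytes, had 1573, 1365 and 1774 CPM in the day 3 libraries and 622, 617, 535 and 692 CPM in the day 7 libraries (log2 fold change -1.35, standard error 0.11, adjusted p = 1.90e-04) in the myeloid sums. Il1a, the cell-bound form, had 39.1 ± 30.6 CPM at day 3 and 6.35 ± 3.83 at day 7 (mean ± SD, n = 3 and n = 4, log2 fold change -2.61). Tnf, tumour necrosis factor, had 166, 259 and 291 CPM at day 3 and 50.4, 35.4, 82.4 and 76.7 CPM at day 7 in the myeloid sums (log2 fold change -1.97, standard error 0.28, adjusted p = 0.00133). Day 3 values lay above all day 7 values for these 3 genes. Ptgs2 (cyclooxygenase 2) fell by less (log2 fold change -0.88), and its call was lost without day 3 replicate 1 or 3. In the stromal sums Il6 went from 157 to 64.7 CPM (log2 fold change -1.28), Lif, a cytokine of the interleukin 6 family, from 40.9 to 9.54 CPM (-2.11), and Csf1, the ligand of Csf1r, from 76.8 to 31.9 CPM (-1.27), and all 3 fell.

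Chemokines fell with them, beside 16.2% lower of all myeloid and 21.5% lower of all stromal genes tested. Of the CXC chemokines that attract neutrophils, 0 of 5 tested members were higher and 4 lower in the myeloid sums and 0 of 5 tested members were higher and 3 lower in the stromal sums, the latter count being 5 without a filter on low counts, without day 3 replicate 2 or without day 7 replicate 2. Cxcl2 had 2611, 3276 and 4201 CPM in the day 3 libraries and 1037, 785, 1671 and 1947 CPM in the day 7 libraries in the myeloid sums (log2 fold change -1.31, standard error 0.29, adjusted p = 0.00915). In the stromal sums Cxcl1 had 1631, 1557 and 1676 CPM in the day 3 libraries and 598, 549.6, 764 and 691 CPM in the day 7 libraries (log2 fold change -1.32, standard error 0.11, adjusted p = 6.78e-05). Groups did not overlap in either case. Cxcl5 fell in the stromal sums with a log2 fold change of -1.18, a call lost in the stricter gate and without day 3 replicate 1 or 3.

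The CC chemokines, which draw monocytes and lymphocytes, moved both ways in the myeloid sums, where 4 of 13 tested members were higher and 7 lower, and one way in the stromal sums, where 0 of 11 tested members were higher and 8 lower. Of the 8 that fell in the stromal sums, 6 were at under 0.25 of the CPM of the other cells, all but Ccl2 and Ccl7. Ccl2, the main monocyte attractant, went from 786 to 246 CPM in the myeloid (log2 fold change -1.68) and from 1406 to 259 CPM in the stromal sums (-2.44). Ccl7, another ligand of the same receptor, fell with log2 fold changes of -1.49 and -1.82. In the other direction Ccl8, a monocyte attractant of resident macrophages, had 1281, 1437 and 908 CPM in the day 3 libraries and 2861, 3028, 4924 and 2166 CPM in the day 7 libraries (log2 fold change 1.42, standard error 0.27, adjusted p = 0.00423) and Ccl5 rose from 28.2 to 95.1 CPM (1.75). The number of higher members was 2 instead of 4 when day 7 replicate 1, 2 or 3 was left out. Shares over all genes tested were 15.4% higher and 16.2% lower in the myeloid sums and 22.0% and 21.5% in the stromal sums.

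Genes that NF-kB induces and that restrain or extend its action fell in both gates, 11 of 12 tested in the myeloid sums (median -0.70) and 12 of 12 in the stromal sums (median -0.95), with 0 higher. The counts were 7 in the myeloid sums without day 3 replicate 3 and 6 in the stromal sums with cells thinned to 2000 UMIs. Nfkbia, the inhibitor that holds NF-kB in the cytoplasm, had 1409, 1569.6 and 1713 CPM in the day 3 libraries and 591, 512, 771 and 768 CPM in the day 7 libraries in the myeloid sums (log2 fold change -1.24, standard error 0.15, adjusted p = 5.91e-04). Sod2, mitochondrial superoxide dismutase, had 414, 254 and 434 CPM in the day 3 libraries and 99.2, 133, 107 and 151 CPM in the day 7 libraries in the stromal sums (log2 fold change -1.58, standard error 0.20, adjusted p = 3.74e-04). Interferon-stimulated genes did not fall with them. Of these, 1 of 16 tested members were higher and 0 lower in the myeloid (median 0.38) and 2 of 15 tested members were higher and 0 lower in the stromal sums (median 0.48). All genes tested had shares of 15.4% higher and 16.2% lower in the myeloid sums and 22.0% and 21.5% in the stromal sums. Interferon-stimulated genes were thus called less often than genes overall in either direction. The myeloid count of higher members ranged from 0 to 7 over the alternatives, with 7 under the replicate block and 0 without any one of the 3 day 3 libraries.

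Promoters of 3 of the fallen genes are shown for the NF-kB motif that they hold. The motif is a 10-base consensus known by that name and was searched on both strands. It was present in 9 of 12 promoters of 9 NF-kB feedback genes that matched the RefSeq table, in 3 of 4 promoters of 4 neutrophil-attracting CXC chemokines, in 1 of 7 promoters of 7 CC chemokines, in 4 of 16 promoters of 12 inflammatory cytokine and enzyme genes and in 8.46% of all 32851 promoters. All promoters are read 5' to 3' in the direction of the gene, with the matches in capitals. In Cxcl1 (chr5:90890995-90891294, plus strand) and Cxcl2 (chr5:90903649-90903948, plus strand) matches on both strands overlap, and start 71 and 70 and 97 and 96 bases before the start. The match of Nfkbia (chr12:55492598-55492897, minus strand) starts 29 bases before the start. A match describes the letters and is not a measured binding site. These counts cover all matched members of a list, fallen or not. Cxcl3, one of the 3 CXC chemokines with the motif, was called in neither gate. The feedback list was chosen as genes that NF-kB induces, so that its count does not bear on the fall from day 3 to day 7.
Cxcl1: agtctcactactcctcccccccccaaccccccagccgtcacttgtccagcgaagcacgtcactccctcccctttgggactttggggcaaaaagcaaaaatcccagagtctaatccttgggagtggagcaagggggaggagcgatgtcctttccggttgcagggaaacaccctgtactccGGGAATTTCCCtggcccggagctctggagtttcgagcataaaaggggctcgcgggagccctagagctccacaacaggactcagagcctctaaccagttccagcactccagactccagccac
Cxcl2: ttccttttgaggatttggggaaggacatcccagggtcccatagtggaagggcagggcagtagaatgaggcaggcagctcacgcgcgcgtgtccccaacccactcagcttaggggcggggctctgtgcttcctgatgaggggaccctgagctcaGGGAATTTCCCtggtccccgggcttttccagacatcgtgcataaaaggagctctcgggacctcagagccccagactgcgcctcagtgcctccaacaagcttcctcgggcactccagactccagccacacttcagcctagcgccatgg
Nfkbia: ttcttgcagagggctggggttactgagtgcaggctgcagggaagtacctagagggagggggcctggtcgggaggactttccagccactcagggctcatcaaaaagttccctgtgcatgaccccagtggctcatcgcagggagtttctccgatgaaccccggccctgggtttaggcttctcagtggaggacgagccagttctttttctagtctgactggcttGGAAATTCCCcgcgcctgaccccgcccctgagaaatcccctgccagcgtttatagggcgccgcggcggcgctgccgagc

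Alarmins and monocyte genes were among the largest falls of the myeloid sums. S100a8 and S100a9, which together form calprotectin, made up a large part of the neutrophil markers. S100a8 had 1531, 2026 and 3141 CPM in the day 3 libraries and 269.7, 84.0, 197 and 293 CPM in the day 7 libraries (log2 fold change -3.40, standard error 0.40, adjusted p = 5.74e-04) and S100a9 1112, 1374 and 2155 CPM at day 3 and 176, 61.7, 141 and 193 CPM at day 7 (log2 fold change -3.43). Saa3, an acute phase protein, had 171, 188 and 412 CPM at day 3 and 11.9, 10.3, 7.82 and 30.5 CPM at day 7 (log2 fold change -4.05, standard error 0.46, adjusted p = 5.25e-04). Its day 3 mean was higher in the stromal sums, as given below, and the part of stromal RNA in this fall was not tested. Of all alarmins and acute phase genes, 0 of 10 tested members were higher and 7 lower (median -0.84). Of the inflammatory monocyte genes, 1 of 15 tested members were higher and 11 lower (median -1.25). Shares of all myeloid genes tested were 15.4% higher and 16.2% lower. Ly6c2, Plac8, Ifitm6, Chil3, Hp, Vcan, F10 and Thbs1 of this list are among the top genes of a day 3 cluster in the paper. The list thus overlaps with genes picked in the day 3 data, and its count is a description only. Chil3, a chitinase-like protein of monocytes and neutrophils, had 456, 424 and 382 CPM in the day 3 libraries and 31.6, 11.5, 19.8 and 42.5 CPM in the day 7 libraries (log2 fold change -3.98, standard error 0.33, adjusted p = 1.93e-04). Ly6c2, the gene of the Ly6C antigen, fell from 209 to 73.2 CPM (-1.51), and Vcan (versican) had a log2 fold change of -1.59.

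Most genes of the lipid-handling macrophage list were higher at day 7. Of these, 15 of 17 tested members were higher and 1 lower (median 1.13), against 15.4% and 16.2% of all genes tested. Spp1, Lgals3, Cd36, Mmp12, Apoe and Trem2 are listed in the paper for macrophage clusters 1 week after injury. H2-Aa, H2-Eb1, C1qa, C1qb and C1qc of the lists below are listed there too. The list thus overlaps with genes picked in 1-week data of the same study, and its count is a description only. Apoe, the apolipoprotein that carries cholesterol out of macrophages, had 7854, 10657 and 9043 CPM in the day 3 libraries and 19822, 29633, 38532 and 18024 CPM in the day 7 libraries (log2 fold change 1.53, standard error 0.25, adjusted p = 0.0025). Abcg1, a cholesterol exporter, rose from 17.7 to 54.2 CPM (1.62), Fabp5, a fatty acid carrier, from 856 to 2182 CPM (1.35), Trem2, a receptor for lipids and dead cells, from 364 to 744 CPM (1.03) and Cd9, a tetraspanin, from 157 to 410.1 CPM (1.38). No library of day 3 reached any of day 7 for Apoe. Spp1 (osteopontin) rose by 0.75 on the log2 scale, a call lost in thinned cells and without day 3 replicate 1. Lysosomal genes rose by less, since 11 of 18 tested members were higher and 0 lower with a median of 0.40. Ctsk (cathepsin K), a collagen-degrading protease, had 48.9, 75.4 and 44.1 CPM at day 3 and 171, 179, 195 and 159 CPM at day 7 (log2 fold change 1.65, standard error 0.18, adjusted p = 4.14e-04), a call lost in the stricter gate, and Psap (prosaposin) and Ctss (cathepsin S) rose by 0.92 and 0.61.

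MHC class II genes were higher at day 7 in the myeloid sums, where 7 of 10 tested members were higher and 1 lower (median 0.77). Over all myeloid genes tested the shares were 15.4% and 16.2%. H2-Ab1, a chain of the class II molecule, had 1854, 1748 and 1794 CPM in the day 3 libraries and 4788, 5155, 4623 and 3083 CPM in the day 7 libraries (log2 fold change 1.29, standard error 0.16, adjusted p = 6.69e-04), and Cd74, the invariant chain, had 5691, 5256 and 5667 CPM at day 3 and 12789, 13928, 12742 and 8451 CPM at day 7 (log2 fold change 1.11, standard error 0.15, adjusted p = 0.00114). Each day 7 library lay above each day 3 library for both. The count of higher members was 4 when myeloid cells with UMIs of dendritic cell or neutrophil genes were left out. Dendritic cell markers summed to 57.9 to 69.0 CPM at day 3 and 47.4 to 92.2 CPM at day 7 in these sums, 0 of 5 tested rose and 1 fell.

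Of the resident-type macrophage genes, 6 of 19 tested members were higher and 1 lower (median 0.29), against 15.4% and 16.2% of all myeloid genes tested. The higher count was 10 in thinned cells and 3 without day 3 replicate 1 or 3. Cx3cr1, the fractalkine receptor, had 20.9, 20.9 and 20.8 CPM at day 3 and 48.4, 64.4, 75.1 and 50.8 CPM at day 7 (log2 fold change 1.51, standard error 0.15, adjusted p = 3.15e-04), and Cd163, the receptor for haptoglobin with hemoglobin, went the other way, from 72.7 to 26.9 CPM (-1.45). Mertk, a receptor for dead cells, rose by 0.83. C1qa, C1qb and C1qc, the chains of complement C1q, had log2 fold changes of 0.87, 0.77 and 0.87, and their calls were lost without day 3 replicate 1 or 3. With them the complement list went from 4 higher and 4 lower of 14 tested to 0 higher without either of these libraries, and its lower count was 1 or 2 when any single library was left out.

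Heme and iron genes rose more often than they fell, 7 against 2 of 12 tested, with 4 higher without day 3 replicate 1. Of all myeloid genes tested, 15.4% were higher and 16.2% lower. Slc40a1 (ferroportin), the iron exporter, had 7.06, 9.47 and 11.3 CPM at day 3 and 19.3, 35, 52.0 and 35.5 CPM at day 7 (log2 fold change 1.92, standard error 0.30, adjusted p = 0.00186). Blvrb (biliverdin reductase B) and the ferritin genes Ftl1 and Fth1 had log2 fold changes of 0.93, 0.54 and 0.59. Lcn2, described above, was one of the 2 that fell. Erythrocyte markers, mainly hemoglobin, summed to 982 to 14948 CPM at day 3 and 1786 to 5675 CPM at day 7 in the same sums and overlapped between days.

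The alternative activation genes did not move as a group. Of these, 5 of 12 tested members were higher and 5 lower in the myeloid sums, the higher count being 3 with a minimum of 10 UMIs in every library, without dendritic cell or neutrophil genes or without day 7 replicate 1, 2 or 3. Beside this list, 15.4% of all myeloid genes tested were higher and 16.2% lower. Retnla and Mgl2 rose, as given above. Arg1 (arginase 1), which makes ornithine from arginine, went the other way, with 259, 244 and 609 CPM in the day 3 libraries and 86.2, 77.3, 35.3 and 157 CPM in the day 7 libraries (log2 fold change -2.05, standard error 0.45, adjusted p = 0.00907). Every day 3 library was above every day 7 library. Ear2, an eosinophil-type ribonuclease also made by macrophages, rose by 1.36, and Egr2 and Tgm2 fell, with log2 fold changes of -1.15 and -0.69. Ear2 has near-identical neighbours, so that its count is uncertain.

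Of the hypoxia and glycolysis genes, 10 of 22 were lower in the myeloid and 8 of 22 in the stromal sums, with 0 higher. Of all genes tested, 16.2% were lower in the myeloid and 21.5% in the stromal sums. Pgk1, phosphoglycerate kinase, had 131, 99.6 and 171 CPM in the day 3 libraries and 46.7, 41.1, 22.3 and 53.2 CPM in the day 7 libraries in the myeloid (log2 fold change -1.69, standard error 0.26, adjusted p = 0.00166) and 189, 164 and 186 CPM at day 3 and 42.7, 74.5, 39.6 and 76.1 CPM at day 7 in the stromal sums (log2 fold change -1.62, standard error 0.23, adjusted p = 5.97e-04). Days did not overlap in either gate. Slc16a3, the lactate exporter, fell from 172 to 52.5 CPM in the myeloid sums (-1.70), and Hk2 (hexokinase 2) from 175 to 86.7 CPM in the stromal sums (-1.01). The myeloid count was 5 without day 3 replicate 3. The stromal count was 2 in the stricter gate, 5 in the gate without carried-over RNA, 4 without day 3 replicate 1 or 3 and 5 without day 7 replicate 3.

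Cell cycle genes were lower at day 7 in both gates, 18 of 25 tested in the myeloid sums (median -0.77) and 17 of 25 in the stromal sums (median -0.81), with 0 higher. Over all genes tested, 16.2% were lower in the myeloid and 21.5% in the stromal sums. Mcm5, a subunit of the replicative helicase, had 23.7, 19.3 and 18.6 CPM in the day 3 libraries and 9.25, 9.24, 13.5 and 6.44 CPM in the day 7 libraries in the myeloid sums (log2 fold change -1.12, standard error 0.20, adjusted p = 0.00324). Ccnb2 (cyclin B2), a driver of mitosis, had 109, 105 and 109 CPM in the day 3 libraries and 34.6, 52.0, 36.1 and 60.1 CPM in the day 7 libraries in the stromal sums (log2 fold change -1.24, standard error 0.18, adjusted p = 7.23e-04). Mki67, the proliferation marker Ki-67, fell from 43.3 to 19.1 CPM in the stromal sums (-1.18). These counts depended on which cells were taken. The myeloid count was 10 in thinned cells and in the gate without carried-over RNA, and 11 without day 3 replicate 1. When cells with UMIs of dendritic cell or neutrophil genes were left out it was 0, and 6 members were called higher in the rest. That step left 361, 270 and 252 of 1469, 1482 and 1286 myeloid cells in day 3 replicates 1 to 3. It left 1116, 1024, 939 and 1048 of 1305, 1132, 1028 and 1168 in day 7 replicates 1 to 4. A cell with 1 such UMI was left out, and whether that UMI came from another cell was not tested. The stromal count was 2 in the stricter gate.

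The promoter of Ccnb2 is shown for a repeated CCAAT motif. CCAAT was present on either strand in 18 of 21 promoters of the 21 cell cycle genes that matched, against 37.4% of all promoters, and TTTGAA, a letter form of the cell cycle homology region, in 10 of 21 against 17.9%. In Ccnb2 (chr9:70421505-70421804, minus strand, GRCm38.p6) the capitals mark 3 CCAAT matches that start 87, 54 and 21 bases before the start.
Ccnb2: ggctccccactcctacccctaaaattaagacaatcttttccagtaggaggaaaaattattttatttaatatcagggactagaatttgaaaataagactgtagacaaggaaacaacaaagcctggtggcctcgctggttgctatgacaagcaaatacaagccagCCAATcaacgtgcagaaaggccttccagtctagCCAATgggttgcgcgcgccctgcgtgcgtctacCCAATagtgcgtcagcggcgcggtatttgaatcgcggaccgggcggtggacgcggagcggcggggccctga

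Matrix genes rose in the myeloid sums too, but few of them passed the limit on RNA from other cells. Of the fibrillar collagens 7 of 9 tested members rose there, and each of the 7 was at under 0.25 of its CPM in the other cells. The count was 3 in the stricter gate and 2 when myeloid cells with at least 0.1% of their UMIs from Col1a1, Col1a2 and Col3a1 were left out. That step selects cells by members of the same list, so that its lower count was partly set in advance. Over all myeloid genes tested, 15.4% were higher. Of genes above the limit, Tgfbi and Thbs1 (thrombospondin 1) fell, with log2 fold changes of -0.95 and -1.10, and Mmp14, a membrane-bound collagenase, rose from 53.6 to 113 CPM (log2 fold change 1.08, standard error 0.11, adjusted p = 3.15e-04). Igf1, insulin-like growth factor 1, had 77.5, 118 and 74.1 CPM in the day 3 libraries and 241, 340.0, 403 and 299.6 CPM in the day 7 libraries (log2 fold change 1.84, standard error 0.21, adjusted p = 5.35e-04), with no overlap between days. Igf1 and Mmp14 also rose in the stromal sums, as given below, to higher CPM at day 7 than here. The part of stromal RNA in their myeloid rises was not tested. Pdgfc rose by 0.77. Tgfb1, whose genotype is not known for any library, had 309.9, 309 and 326 CPM in the day 3 libraries and 247, 249.5, 223 and 247 CPM in the day 7 libraries (log2 fold change -0.38, standard error 0.069, adjusted p = 0.00364). Id1 and Id3, targets of BMP signalling, fell with log2 fold changes of -1.53 and -1.17, the former not past the threshold without dendritic cell or neutrophil genes.

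A total of 22 genes were on at day 7 in the stromal sums (0.166% of those tested), and 21 of them passed the limit on RNA from other cells, Ccl21a being the exception. The list includes genes known from growing tissue, tendon and contractile cells. The 21 were Dlk1, Gzme, Wfdc18, Prss35, Kera, Actg2, Edil3, Sbspon, Pamr1, Igf2, Brinp3, Agtr2, Cd59a, Mmp11, Clu, Atp1b1, Fat4, Ctxn1, Moxd1, Vtn and Stmn2. Dlk1, a membrane protein of progenitor cells that is imprinted (chromosome 12, 109452823 to 109463336, GRCm38), had 0.932, 1.11 and 1.70 CPM in the day 3 libraries and 100.2, 40.7, 302 and 87.9 CPM in the day 7 libraries (log2 fold change 6.76, standard error 0.86, adjusted p = 3.70e-04). It rested on 33 UMIs at day 3 and 8387 at day 7. It was found in 18.3% of the stromal cells of day 7, and after thinning in 8.98% of them against 1.21% of the myeloid cells.

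Gzme had 0.350, 0.342 and 0.848 CPM in the day 3 libraries and 59.5, 39.0, 31.4 and 11.5 CPM in the day 7 libraries (log2 fold change 6.18, standard error 0.75, adjusted p = 3.08e-04), on 13 UMIs at day 3 and 2192 at day 7. It is one of a row of granzyme genes on chromosome 14 with near-identical sequences, which makes its identity uncertain. Kera (keratocan), a proteoglycan of tendon and cornea, had 0.466, 1.54 and 0.141 CPM at day 3 and 16.9, 31.6, 31.0 and 16.3 CPM at day 7 (log2 fold change 4.85, standard error 0.49, adjusted p = 1.25e-04). Actg2, a smooth muscle actin, had 3.15, 1.71 and 3.82 CPM at day 3 and 71.2, 86.1, 46.9 and 71.3 CPM at day 7 (log2 fold change 4.64, standard error 0.29, adjusted p = 1.87e-05). Each of these genes was at its highest day 3 value below its lowest day 7 value, which the definition of on requires. Igf2, a growth factor that is imprinted like Dlk1, had 3.38, 4.36 and 3.67 CPM at day 3 and 92.6, 35.6, 62.0 and 25.9 CPM at day 7 (log2 fold change 3.80, standard error 0.48, adjusted p = 3.65e-04), and Agtr2, the type 2 receptor for angiotensin II, had 2.56, 2.82 and 1.41 CPM at day 3 and 31.0, 9.58, 36.7 and 4.38 CPM at day 7 (log2 fold change 3.11).

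The 12 largest rises held both on genes and genes that started above the limit for on. Of the latter, C1qtnf3, a secreted protein with a C1q-like domain, had 8.39, 41.6 and 6.92 CPM in the day 3 libraries and 298, 1253, 768 and 581 CPM in the day 7 libraries (log2 fold change 5.20, standard error 0.73, adjusted p = 6.15e-04). Tnmd (tenomodulin), a marker of tendon cells (chromosome X, 133850980 to 133865577, GRCm38), had 8.97, 18.8 and 5.79 CPM in the day 3 libraries and 157, 368, 257 and 146 CPM in the day 7 libraries (log2 fold change 4.32, standard error 0.46, adjusted p = 1.60e-04). Both rose in all 4 day 7 libraries above all of day 3, which the rule for the largest changes requires. Mdk (midkine) and Ptn (pleiotrophin), a pair of related heparin-binding growth factors, rose from 15.6 to 310.3 CPM (4.32) and from 38.6 to 739 CPM (4.25). Of the on genes, Prss35, a serine protease-like protein, Edil3, an integrin-binding matrix protein, and Sbspon had log2 fold changes of 4.96, 4.45 and 4.21.

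Of 16 genes off in the stromal sums (0.121% of those tested), 7 were at under 0.25 of the CPM of other cells, Tnf and Arg1 among them, and 9 were above that limit. These were Retnlg, Wfdc21, Gm5483, Trem1, Car4, Asprv1, Irg1, Serpina3m and Pla2g2e. Retnlg, Wfdc21, Gm5483, Trem1, Asprv1 and Irg1 are genes of neutrophils or monocytes, and Retnlg had a mean of 314 CPM in the day 3 cells outside the gate. In the stromal sums Retnlg had 121, 129 and 128 CPM in the day 3 libraries and 2.59, 0.940, 2.65 and 1.79 CPM in the day 7 libraries. Only 3 of the 9 had more CPM in stromal sums than in the other cells. Serpina3m, a serine protease inhibitor, had 23.1, 26.8 and 12.6 CPM at day 3 and 4.39, 2.88, 4.33 and 4.06 CPM at day 7 (log2 fold change -2.43, standard error 0.25, adjusted p = 1.33e-04), Car4, a carbonic anhydrase, 28.7, 8.38 and 39.3 CPM at day 3 and 2.16, 1.06, 2.13 and 6.33 CPM at day 7 (log2 fold change -3.06, standard error 0.59, adjusted p = 0.00278), and Pla2g2e, a secreted phospholipase, 15.6, 45.1 and 6.08 CPM at day 3 and 5.54, 0.999, 6.0 and 4.92 CPM at day 7 (log2 fold change -2.40, standard error 0.63, adjusted p = 0.0127). The call of Pla2g2e was lost in the stricter gate and without day 3 replicate 2. Serpina3m is a member of a cluster of close copies, so that its count is uncertain.

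Falls of stromal genes that stayed above the limit for off included Cxcl14 and Aldh1a2. Cxcl14, a chemokine of fibroblasts, had 3813, 2598 and 2821 CPM in the day 3 libraries and 510.2, 241, 529.9 and 298 CPM in the day 7 libraries (log2 fold change -2.96, standard error 0.28, adjusted p = 8.46e-05). Aldh1a2, an enzyme that makes retinoic acid, had 93.8, 123 and 56.2 CPM in the day 3 libraries and 21.1, 5.82, 9.88 and 13.2 CPM in the day 7 libraries (log2 fold change -2.88, standard error 0.38, adjusted p = 4.29e-04). Neither overlapped between days, which the rule for the largest changes requires. Lcn2 went from 194 to 28.7 CPM in the stromal sums (log2 fold change -2.77, standard error 0.38, adjusted p = 5.33e-04), and Saa3 from 510.0 to 131 CPM (-1.96).

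Collagens rose broadly in the stromal sums. Of the fibrillar collagens, 8 of 10 tested members were higher and 0 lower (median 1.02), and of the other interstitial collagens, 10 of 12 tested members were higher and 1 lower (median 1.45), against 22.0% and 21.5% of all genes. Col11a1, a minor fibrillar collagen of cartilage that is part of mixed fibrils, had 23.0, 26.2 and 27.0 CPM in the day 3 libraries and 190.1, 356, 238 and 189 CPM in the day 7 libraries (log2 fold change 3.26, standard error 0.24, adjusted p = 3.11e-05). Col8a1, a short-chain collagen, had 22.5, 32.5 and 41.1 CPM at day 3 and 124, 219.7, 178 and 183 CPM at day 7 (log2 fold change 2.46, standard error 0.24, adjusted p = 9.73e-05). Both were higher in each day 7 library. Col12a1 and Col14a1, which sit on the surface of fibrils, rose by 1.47 and 1.63, and Col6a3 by 1.56. Col1a2 rose from a high level, from 7552 to 13965 CPM (log2 fold change 0.89, standard error 0.11, adjusted p = 3.49e-04), a call lost in the stricter gate. Col1a1, which the gate used, had 8484, 9979 and 8400.0 CPM at day 3 and 18728, 19392, 19277 and 15828 CPM at day 7 and is given as a description only. The basement membrane collagens Col4a1 and Col4a2 fell, with log2 fold changes of -0.88 and -0.82, not past the threshold without day 3 replicate 1.

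Small proteoglycans and matricellular proteins, which bind collagen or link cells to matrix, rose with them. Over all stromal genes tested, 22.0% were higher and 21.5% lower. Of the small leucine-rich proteoglycans, 9 of 11 tested members were higher and 0 lower (median 1.42). Aspn (asporin) had 101, 227 and 105 CPM in the day 3 libraries and 657, 1303, 1290.3 and 816 CPM in the day 7 libraries (log2 fold change 2.81, standard error 0.36, adjusted p = 3.64e-04), Lum (lumican) rose from 433 to 1687 CPM (1.96) and Ogn from 128 to 380.4 CPM (1.57). Of the matricellular genes, 14 of 20 tested members were higher and 1 lower (median 1.14). Postn (periostin), which binds collagen and is made in healing tendon and bone, had 732, 1092 and 735 CPM in the day 3 libraries and 3962, 4526, 4505 and 3479 CPM in the day 7 libraries (log2 fold change 2.27, standard error 0.17, adjusted p = 3.11e-05). No day 3 library reached a day 7 library for Aspn or Postn. Tnn (tenascin W) rose from 22.3 to 219 CPM (3.29) and Thbs4 (thrombospondin 4) from 100.0 to 602 CPM (2.58), and the member that fell was Wisp2, with 749, 1011 and 566 CPM at day 3 and 256, 102, 169 and 139.7 CPM at day 7 (log2 fold change -2.22, standard error 0.29, adjusted p = 4.23e-04). Of the elastic fibre genes, 8 of 16 tested members were higher and 1 lower, with Mfap4 at 45.1, 98.3 and 46.6 CPM at day 3 and 512, 627, 718 and 417 CPM at day 7 (log2 fold change 3.16, standard error 0.31, adjusted p = 1.08e-04), Mfap2 at 3.11 and Fbn2 (fibrillin 2) at 1.91 log2 fold change.

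Enzymes that process collagen were called in both directions at shares not far from those of all stromal genes (22.0% higher and 21.5% lower), and genes of the secretory pathway fell more often than they rose. Of the collagen processing enzymes, 7 of 24 tested members were higher and 6 lower (median 0.03), and the higher count was 2 to 4 under the replicate block, in the stricter gate, in the gate without carried-over RNA, in thinned cells and without day 3 replicate 1 or 3 or day 7 replicate 2 or 3, and the lower count was 3 in thinned cells. Lox (lysyl oxidase), which cross-links collagen, had 982, 1269 and 1000.1 CPM at day 3 and 675, 743, 621 and 722 CPM at day 7 (log2 fold change -0.65, standard error 0.11, adjusted p = 0.00155). P3h3, a prolyl hydroxylase family member, rose by 0.76. Of the secretory pathway genes, 1 of 24 tested members were higher and 9 lower (median -0.11), the lower count being 5 without day 3 replicate 3. Hspa5 (BiP), the main chaperone of the endoplasmic reticulum, went from 681 to 493 CPM (-0.47).

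Proteases and their inhibitors were called in both directions, 9 of 21 tested higher and 7 lower against 22.0% and 21.5% of all stromal genes, with 4 lower in thinned cells. Mmp14 had 104, 115 and 107 CPM at day 3 and 431, 451, 509 and 398 CPM at day 7 (log2 fold change 2.04, standard error 0.11, adjusted p = 1.40e-05) and Mmp11 (stromelysin 3) 3.61, 5.22 and 3.53 CPM at day 3 and 28.8, 33.9, 31.4 and 24.4 CPM at day 7 (log2 fold change 2.81, standard error 0.18, adjusted p = 1.87e-05). Timp2, an inhibitor that also helps to activate Mmp2, rose from 484 to 1184 CPM (1.29). Adamts1, a protease that cleaves proteoglycans, had a log2 fold change of -1.21. Mmp13, the collagenase of hypertrophic cartilage, went from 29.1 to 87.1 CPM and did not pass the threshold (adjusted p = 0.104).

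Contractile genes had the largest median of the 31 gene lists in the stromal sums, markers of other cell types apart, 2.39, and 9 of 12 tested members were higher and 0 lower. The shares of all stromal genes tested were 22.0% higher and 21.5% lower. Acta2 (smooth muscle alpha actin), the marker of myofibroblasts, had 91.1, 123 and 166 CPM in the day 3 libraries and 923, 1464, 549 and 1435 CPM in the day 7 libraries (log2 fold change 3.11, standard error 0.36, adjusted p = 2.31e-04). Tagln (transgelin) had 17.0, 35.2 and 43.1 CPM in the day 3 libraries and 405, 689, 345 and 686 CPM in the day 7 libraries (log2 fold change 4.07, standard error 0.38, adjusted p = 8.46e-05). Day 7 libraries were all above day 3 libraries for both. Myl9 and Tpm2, a myosin light chain and a tropomyosin, rose by 2.82 and 1.96. These genes are also made by mural cells of vessels, whose markers (Rgs5, Kcnj8, Myh11, Des and Notch3) summed to 25.5 to 57.7 CPM at day 3 and 49.4 to 87.8 CPM at day 7, with 2 of 5 higher, and the part of mural cells in the rise was not tested.

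Tendon and cartilage genes were called higher more often than genes overall in the stromal sums (22.0%), and no member was called lower. Of the tendon genes, 7 of 12 tested members were higher and 0 lower (median 1.09), the count being 4 in the stricter gate and without day 7 replicate 2 or 3, and 3 without day 3 replicate 1 or 3. Scx (scleraxis), the transcription factor of tendon progenitors, had 13.6, 37.6 and 5.09 CPM in the day 3 libraries and 28.9, 127, 83.0 and 79.9 CPM in the day 7 libraries (log2 fold change 2.03, standard error 0.60, adjusted p = 0.0218), a call lost in the stricter gate and without day 3 replicate 1 or 3. Fmod (fibromodulin) rose from 67.8 to 182 CPM (1.42). Of the chondrogenic and osteogenic genes, 9 of 18 tested members were higher and 0 lower (median 0.93), the count being 5 with a minimum of 10 UMIs in every library and 4 in thinned cells. Acan (aggrecan), the large proteoglycan of cartilage, had 14.2, 23.5 and 9.89 CPM in the day 3 libraries and 92.0, 177, 145 and 94.6 CPM in the day 7 libraries (log2 fold change 2.97, standard error 0.33, adjusted p = 1.92e-04). Sox9, the transcription factor of cartilage, had 42.2, 41.1 and 29.7 CPM in the day 3 libraries and 66.9, 67.3, 83.7 and 69.5 CPM in the day 7 libraries (log2 fold change 0.93, standard error 0.14, adjusted p = 8.29e-04). Day 7 replicate 3 stood apart for Sox9, at 83.7 CPM. Runx2, the transcription factor of bone, had 20.7, 11.6 and 19.2 CPM at day 3 and 30.6, 27.9, 34.3 and 32.6 CPM at day 7 (log2 fold change 0.88, standard error 0.18, adjusted p = 0.00388), a call lost in thinned cells.

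Members of the TGF beta and BMP pathways, which act on fibroblasts, cartilage and bone, were called at 8 of 27 tested higher and 4 lower in the stromal sums, against 22.0% higher and 21.5% lower of all genes. Of the ligands, Tgfb2 had 27.5, 34.5 and 25.2 CPM in the day 3 libraries and 63.8, 60.8, 69.0 and 60.2 CPM in the day 7 libraries (log2 fold change 1.12, standard error 0.12, adjusted p = 1.52e-04) and Tgfb3 40.3, 65.8 and 33.3 CPM at day 3 and 80.0, 74.9, 73.9 and 87.8 CPM at day 7 (log2 fold change 0.76, standard error 0.20, adjusted p = 0.0131), the latter lost in the stricter gate, in the gate without carried-over RNA and without day 3 replicate 1. Tgfb1 had 62.4, 60.0 and 61.9 CPM at day 3 and 59.6, 52.6, 47.9 and 57.3 CPM at day 7 and did not pass (log2 fold change -0.18, adjusted p = 0.156). Of the receptors, Tgfbr2 rose from 87.7 to 143 CPM (0.70) and Acvr1 from 23.2 to 33.5 CPM (0.53). Smad7, an inhibitor that the pathway induces, fell from 58.4 to 27.8 CPM (log2 fold change -1.07, standard error 0.16, adjusted p = 7.19e-04), and Bambi, a decoy receptor, rose by 0.56. In thinned cells 4 members were higher and 2 lower. In the myeloid sums 3 of 23 were higher and 8 lower, against 15.4% higher and 16.2% lower of all genes tested there. Of the 3 higher members, Tgfb2 and Fstl1 were under the limit on RNA from other cells and Tgfbr1 was above it. The 8 lower members were all above that limit.

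Of the growth factors of repair, 12 of 26 tested members were higher and 2 lower in the stromal sums, with 7 higher in thinned cells or without day 3 replicate 1 or 3. Igf1 had 359, 616 and 313 CPM at day 3 and 1274, 926, 1114 and 571 CPM at day 7 (log2 fold change 1.18, standard error 0.29, adjusted p = 0.0104), a call lost in the stricter gate and without day 3 replicate 1. Dkk3 rose by 2.00 and Wnt5a by 1.09 on the log2 scale. Genes of uninjured-type fibroblasts rose more often than they fell, 9 against 3 of 18 tested. Beside these lists, 22.0% of all stromal genes tested were higher and 21.5% lower. Clec3b (tetranectin) had 52.7, 88.6 and 43.9 CPM at day 3 and 491, 229.9, 545 and 183 CPM at day 7 (log2 fold change 2.54, standard error 0.42, adjusted p = 0.00133) and Dpt (dermatopontin) rose from 223 to 555 CPM (1.32), while Cxcl14, given above, was one of the 3 that fell. Heme and iron genes fell in the stromal sums, 7 of 12 against 1 higher, with Fth1 going from 10481 to 3776 CPM (log2 fold change -1.47, standard error 0.12, adjusted p = 5.89e-05).

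**Figure D4:**
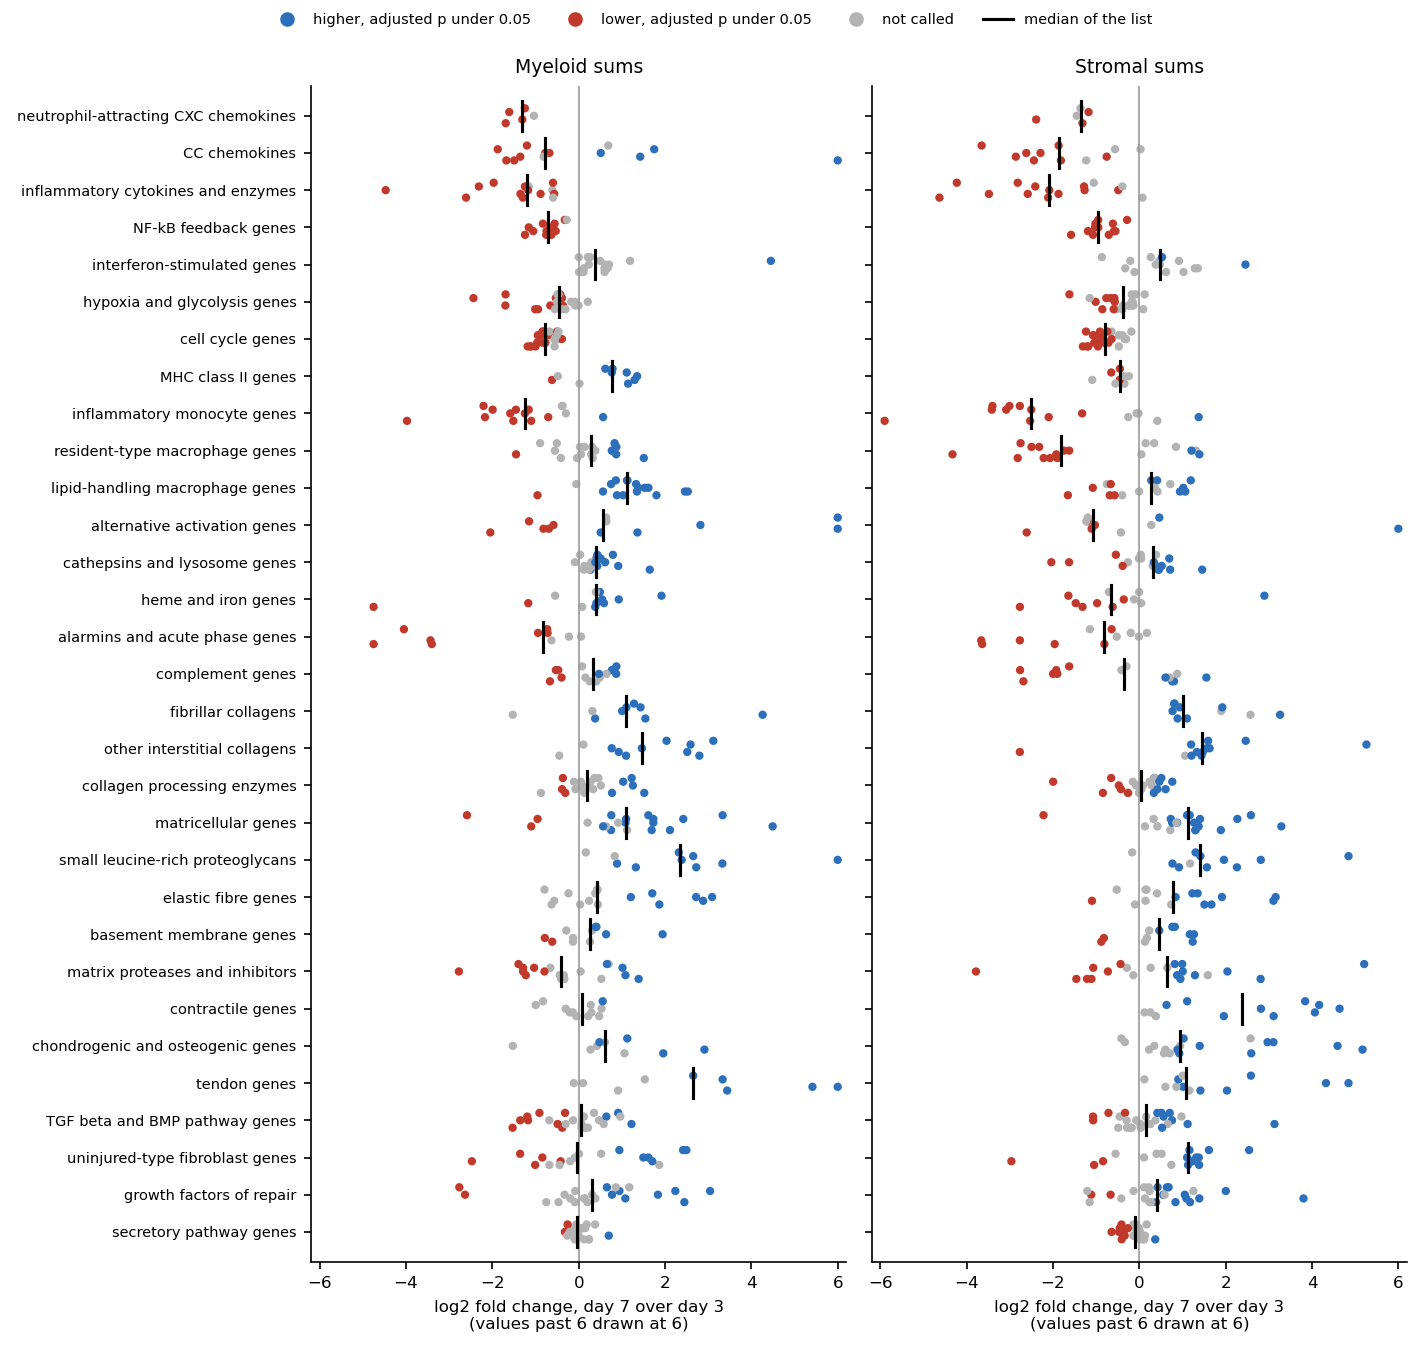
Log2 fold changes (day 7 against day 3) of the tested members of the gene lists in the myeloid and stromal sums, with values past 6 drawn at 6. Each point is a gene, blue where higher and red where lower at an adjusted p under 0.05 and grey where not called, and black bars are list medians. Contractile genes in the stromal sums had a median of 2.39, and inflammatory cytokines and enzymes one of -2.08 beside -2.27 for the myeloid markers there.

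Whether a gene changed alike in both gates was tested as a gate by day interaction with the library as a block. Of 13835 genes tested, 2685 (19.4%) differed between gates. Among 11612 genes tested in both gates, 959 were higher in both (8.26%), 1113 lower in both (9.58%), 109 higher in the myeloid and lower in the stromal sums (0.939%) and 56 the reverse (0.482%). Opposite calls with an interaction past the threshold were made for 165 genes (1.19% of those tested).

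Of genes higher in myeloid and lower in stromal sums, and with at least 20 CPM in both gates on the higher day, those with the largest difference were C1qa, Clec4n, C1qb, Trem2, Apoe and C1qc, all macrophage genes. For Apoe the difference of the log2 fold changes, myeloid minus stromal, was 2.55 (standard error 0.21, adjusted p = 1.89e-05), with 915, 1189 and 937 CPM at day 3 and 586, 406, 638 and 293 CPM at day 7 in the stromal sums. For C1qa it was 2.70 (standard error 0.16, adjusted p = 4.03e-06). These 6 genes had, in the stromal sums, 0.08 to 0.13 of the CPM of the other cells, and the myeloid markers fell there as given above, so that the stromal side of the difference ran beside carried-over macrophage RNA, whose part was not tested.

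In the reverse direction, under the same limit, were Igfbp6, B4galnt1, Bambi, Filip1l, Plscr1 and Antxr2. Igfbp6, a binding protein for insulin-like growth factor 2, had 144, 197 and 193 CPM in the day 3 libraries and 484, 495, 594 and 280.4 CPM in the day 7 libraries in the stromal sums (log2 fold change 1.38, standard error 0.23, adjusted p = 0.00141) and 72.5, 84.2 and 85.6 CPM at day 3 and 43.8, 62.3, 46.1 and 28.4 CPM at day 7 in the myeloid sums (log2 fold change -0.84, standard error 0.20, adjusted p = 0.0137), a difference of -2.28 (standard error 0.15, adjusted p = 6.94e-06). Days did not overlap in either gate. For Antxr2, an anthrax toxin receptor that binds collagen VI, the difference was -1.34 (standard error 0.16, adjusted p = 1.79e-04), and its stromal call was lost in the stricter gate and without day 3 replicate 1 or 3 or day 7 replicate 3. Plscr1 (phospholipid scramblase 1) differed by -1.38 (standard error 0.16, adjusted p = 1.67e-04), and its stromal call was lost in the stricter gate, in the gate without carried-over RNA, in thinned cells and under the replicate block. Filip1l had -1.40 (standard error 0.13, adjusted p = 4.36e-05).

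**Figure D5:**
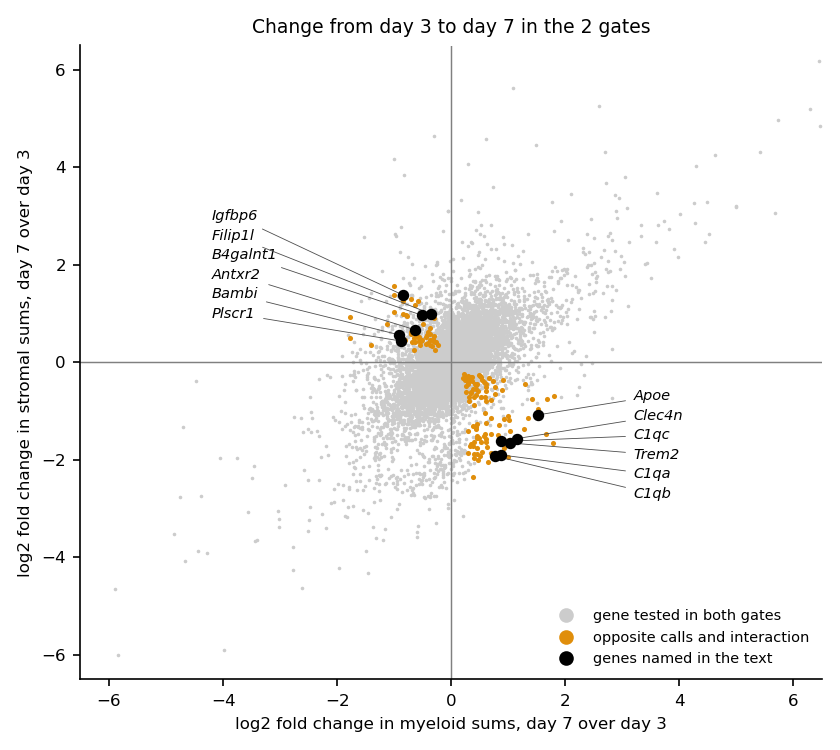
Log2 fold change of 11612 genes tested in both gates, myeloid on the horizontal and stromal on the vertical axis, with 2 genes outside the axes. Orange points are the genes with opposite calls and an interaction past the threshold, and black points are the named ones. More genes lie in the quadrants of the same direction (959 and 1113 called in both) than in the opposite ones (109 and 56). No limit on RNA from other cells was applied.

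The genes that turned on or off were then read at day 0, before injury, and at day 21, in 4 libraries each, as values without a test. Day 0 libraries held 63 to 123 myeloid and 114 to 319 stromal cells, and day 21 libraries 137 to 222 and 294 to 720. Kept cells of day 0 had a median of 3414 to 4693 UMIs per library, so that 5 CPM in those sums stands for few UMIs. Of the 11 myeloid genes off at day 7, 10 were under 5 CPM at day 0 and 9 at day 21, and of the 9 stromal ones 6 and 9. For most of them the day 3 mean was thus above the day 0 and day 21 values, which rest on these smaller sums. Retnla, in contrast, was at 5863 ± 1451 CPM at day 0 (SD, n = 4) and at 558 ± 342 CPM at day 21 (SD, n = 4), with means of 0.30 CPM at day 3 and 177 CPM at day 7 when all groups were scaled together. Its mean was lowest at day 3 of these 4 days.

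Of the 21 stromal genes on at day 7, 9 were under 5 CPM at day 0, and Clu, Pamr1, Stmn2 and Vtn were at 20 CPM or more there. At day 21 none of the 21 was under 5 CPM, 15 were at 20 CPM or more and 11 were above their day 7 mean. Kera had 17.3 ± 16.0 CPM at day 0 and 73.7 ± 18.8 CPM at day 21 (SD, n = 4), and Igf2 had 9.36 ± 5.84 and 74.2 ± 34.3 CPM. Dlk1 and Actg2 had day 7 means of 135.0 and 70.2 CPM and lower means at day 21, at 38.3 ± 33.0 and 21.1 ± 6.16 CPM. Gzme was at 7.03 ± 4.39 CPM at day 21, below its day 7 mean as well. Stromal Tnmd, not on by the definition, had 117 ± 74.2 CPM at day 0 and 870.1 ± 136 CPM at day 21.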

How the data were processed

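Cells of the tenotomy site were profiled with a droplet 3' kit. The authors aligned reads with Cell Ranger to the mouse genome and deposited UMI counts per gene and barcode, not normalized. The submitters' processing notes name GRCh38 for 15 samples and mm10 for 4, and the gene identifiers are those of mouse genes.

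The members and gene lists were chosen with earlier results of these data known. Counts were summed per library and gate, and genes kept by filterByExpr were tested with edgeR 4.0.16 (glmQLFit, TMM, R 4.3.3) and adjusted with Benjamini-Hochberg. P-values measure the spread between libraries, which the study ran as replicates to gauge differences among mice. Standard errors were taken as the log2 fold change over the square root of F. The other tools were scanpy 1.11.5 and matplotlib 3.10.9 for Python 3.11.15, with pandas 2.3.3, SciPy 1.17.1 and NumPy 2.4.6. Genes were placed on GRCm38 with the GENCODE vM21 annotation, and promoters are from RefSeq's GRCm38.p6.

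Named were, per gate and direction, the 12 largest changes past the threshold without overlap of libraries, with a mean of at least 20 CPM in the higher group and at least 0.25 of the CPM of the other kept cells, all on and off genes, the 6 largest opposite changes a direction, and of each list up to 6 members of at least 20 CPM. The 0.25 limit was applied to list members too, which was decided after the data were seen. Genes singled out with a library that stood apart, and those named for an alternative, were chosen by their values. Some members of the gene lists that this rule names are not reported here.

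On simulated counts with 200 genes changed 2-fold, 67% were recovered in the myeloid fit (12049 genes), 68.5% in the stromal fit (13226 genes) and 40.5% in the interaction (13835 genes), and 6.29%, 3.52% and 5.81% of the calls were false. No doublets were removed, except in an alternative that took out the top 3.9% of Scrublet scores per library. Other alternatives were DESeq2 1.42.0, RLE factors, other filters on genes and cells, the replicate block, a single fit of all groups, 4 other gates, cells thinned to 2000 UMIs and each library left out. Libraries with p7N3 were not compared with others. They entered only the single fit of all groups, its scaling of the values over all groups, and the totals of the series. Reads and alignments were not analysed here.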

Additional observations from a re-analysis of the deposited data

Results flagged for a closer look

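In the 4 day 7 libraries of each of 363 gene and gate pairs, the highest or lowest library was compared with the rest, and in 18 its gap to the nearest other library was above Dixon's 95% critical value. Chance flags about 1 in 20 such groups. In the myeloid sums the library that stood apart was replicate 4 for Mmp12 (389 CPM), Stfa2l1 (3.22 CPM) and Cfb (10.6 CPM), replicate 3 for Ccl7 (604 CPM), Maf (283 CPM), Tgfb1 (223 CPM) and Tgfbr2 (102.2 CPM), replicate 2 for Clec4n (757 CPM), Ly6c2 (115 CPM) and Tfrc (9.78 CPM) and replicate 1 for Gsn (198 CPM). In the stromal sums it was replicate 3 for Pcolce (1193 CPM), Mef2c (41.6 CPM) and Sox9 (83.7 CPM), replicate 2 for Vcan (179.5 CPM), replicate 4 for Ccl2 (356 CPM) and replicate 1 for Tgfbr2 (191 CPM) and Gm5483 (4.39 CPM).

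The change from day 3 to day 7 differed between the gates by the interaction test of edgeR for the named genes with opposite calls. The differences in log2 fold change, myeloid minus stromal, were 2.70 for C1qa, 2.68 for Clec4n, 2.62 for C1qb, 2.61 for Trem2, 2.55 for Apoe and 2.46 for C1qc, which are genes of macrophages. They were -2.28 for Igfbp6, -1.53 for B4galnt1, -1.50 for Bambi, -1.40 for Filip1l, -1.38 for Plscr1 and -1.34 for Antxr2.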

How the results depend on the processing

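Named genes kept their direction and their side of the threshold in 7006 comparisons with an alternative, gained a call in 145, lost one in 244 and turned direction in 15. The choice of cells had more weight than the choice of test. DESeq2 called 1754 genes higher and 1817 lower in the myeloid sums and 2566 and 2831 in the stromal sums. With cells thinned to 2000 UMIs the counts were 978 and 1096 in the myeloid sums, 832 and 994 in the stromal sums and 770 genes that differed between gates. In the stricter gate they were 1418 and 1614 in the stromal sums, with 1483 that differed between gates and 6 myeloid genes on, and in the gate read on thinned cells 1833 and 1889, with 1515 that differed and 7 myeloid genes off. The gate without carried-over RNA gave 1183 higher myeloid genes and 5 on. It kept 1158 of 1469, 400 of 1482 and 1031 of 1286 myeloid cells in day 3 replicates 1 to 3. In its stromal sums 10 resident-type macrophage genes were lower, against 11 in the main gate. Without dendritic cell or neutrophil genes 27 myeloid genes were on. Sums of the other gates and of thinned cells hold fewer cells or UMIs, and the cause of the changed counts was not tested.

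Differences of shares, -38.4 points for myeloid and 16.8 for stromal cells, were -32.2 and 20.7 without carried-over RNA, -18.7 and 5.37 with the gate read on thinned cells, 11.2 for the stricter stromal gate and 15.8 for myeloid cells without dendritic cell or neutrophil genes. Log2 fold changes that turned were, in the myeloid sums without carried-over RNA, Col4a1 at 0.0096 and Acta2 at 1.10, with the gate read on thinned cells Col4a2 at 0.11, Col4a1 at 0.50, Acta2 at 1.75 and Igfbp7 at 0.52, and without dendritic cell or neutrophil genes Mcm6 at 0.013, Top2a at 0.38, Ube2c at 0.36, Birc5 at 0.20, Col18a1 at 1.14, Col4a2 at 0.86, Col4a1 at 1.40 and Igfbp7 at 0.67. In the stromal sums C2 was at -0.10 in the stricter gate. The cause was not tested.

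With 1 library left out the myeloid counts were 1015 to 1728 higher, 1254 to 1863 lower, 9 to 20 on and 8 to 12 off, and the stromal counts 1900 to 2772, 2071 to 2790, 18 to 25 and 15 to 19. The genes that differed between gates were 1551 to 2515, and shares differed by -40.4 to -36.1 and by 15.6 to 18.5 points. Without day 3 replicate 1 there were 1015 higher and 1254 lower myeloid genes, 1900 higher stromal genes and 1551 that differed between gates, and without day 3 replicate 3 there were 1118, 1278 and, between gates, 1586. Without day 3 replicate 2 there were 20 myeloid genes on.

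Whether equal replicate numbers mark paired libraries is not known. Deviations of same-numbered libraries correlated at 0.054, 0.11 and -0.073 in the myeloid and -0.090, -0.045 and -0.17 in the stromal sums. Differently numbered libraries correlated at -0.148 to 0.153 and -0.294 to 0.231. So few values cannot show pairing or its absence. Day 7 replicate 4 had no day 3 library of its number. With the replicate block 1397 genes were higher and 1499 lower in the myeloid sums, with 11 on and 11 off, and 2120 and 2089 in the stromal sums, with 21 on and 14 off. The libraries of day 3 held 179 to 350 stromal cells, which limits the precision of stromal values at that day.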
